A study of Caenorhabditis elegans with 2 samples.

Results

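The genes described here are 62 of the 19973 nuclear protein-coding genes of Caenorhabditis elegans, chosen by name as cell cycle and DNA replication genes: those called mcm, cdc, cdk, cya, cyb, cyd, cye, cki, cdt, orc, psf, rnr, rpa, rfc or pcn, without the 3 cdc-48 genes. They were examined in a ChIP-seq study of ISW-1, the ATPase of the worm's ISWI-type chromatin remodellers. The animals were strain OP181, which carries the integrated transgene wgIs181 (isw-1::TY1 EGFP 3xFLAG together with unc-119(+)) in an unc-119(ed3) mutant background. Whole L1 larvae aged 6 hours, synchronised by bleaching and starvation, were precipitated with an antibody against GFP. Whether the larvae were fed in those hours is not given in the sources used here. There were 2 biological replicates and 1 condition, which left no other condition to compare and no test between groups. The tagged protein stands in for the endogenous one, and whole animals mix all cell types. Binding in few cells and weak binding in many therefore cannot be told apart. No expression values were measured.

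DNA replication is prepared when the origin recognition complex, CDC-6 and CDT-1 load the MCM helicase onto chromatin, and it starts when kinases and the GINS complex turn that helicase on. At the fork, RPA coats single-stranded DNA, the clamp loader RFC places the sliding clamp PCNA, and ribonucleotide reductase supplies deoxynucleotides. Cyclins and their kinases time these steps, and the inhibitor CKI-1 is needed to keep precursor cells of starved L1 larvae from dividing. In animals, E2F factors bind sites close to the letters GCGCGAAA or GCGCCAAA at many of these genes, and DREAM-type complexes also contact a cell-cycle homology region close to TTTGAA or TTCGAA. ISWI remodellers slide and space nucleosomes.

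Genes count as bound where a peak summit fell in a promoter window that reaches 1000 bp upstream and 500 bp downstream from the outermost start of the gene model. In the conservative list, which holds 2143 peaks that passed a threshold on the irreproducible discovery rate (IDR) over both replicates, 21 of the 62 genes were bound (33.9%, 95% Wilson interval 23.3 to 46.3%). Of all protein-coding genes 10% were bound in the same list. Replicate 1's own thresholded list gave 22 bound genes (35.5%) against 9.82% of all genes. Replicate 2's own list gave 20 (32.3%) against 8.6%. The other thresholded list of the series gave 22 (35.5%) against 10.2%. In each of the 4 lists the share among these genes was therefore above 3 times the share of all genes, but no test was made, and the genes are neither independent of each other nor a random draw.

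The name rule also takes in genes whose best known work lies outside the cycle and replication. CDC-37 is a co-chaperone of Hsp90, CDC-73 a subunit of the PAF1 transcription complex, CDC-5L a splicing factor, CDC-50.B a flippase subunit and, in mammals, the MCM3AP protein takes part in mRNA export. Several kinases named cdk act in transcription (CDK-7, CDK-8, CDK-9, CDK-12 and the CDK-11 pair) or in neurons (CDK-5). Such roles do not exclude a part in the cycle as well, for CDK-7 among others. The group of other genes by name also holds cdc-26, which encodes a subunit of the anaphase-promoting complex and so does belong to the cycle. Leaving out the other kinases, the bound cdk-7 included, and the other genes by name but keeping cdc-26 left 48 genes. This choice was made after seeing the data, and 14 of the 48 were bound (29.2%), against 10% of all genes.

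**Figure D1:**
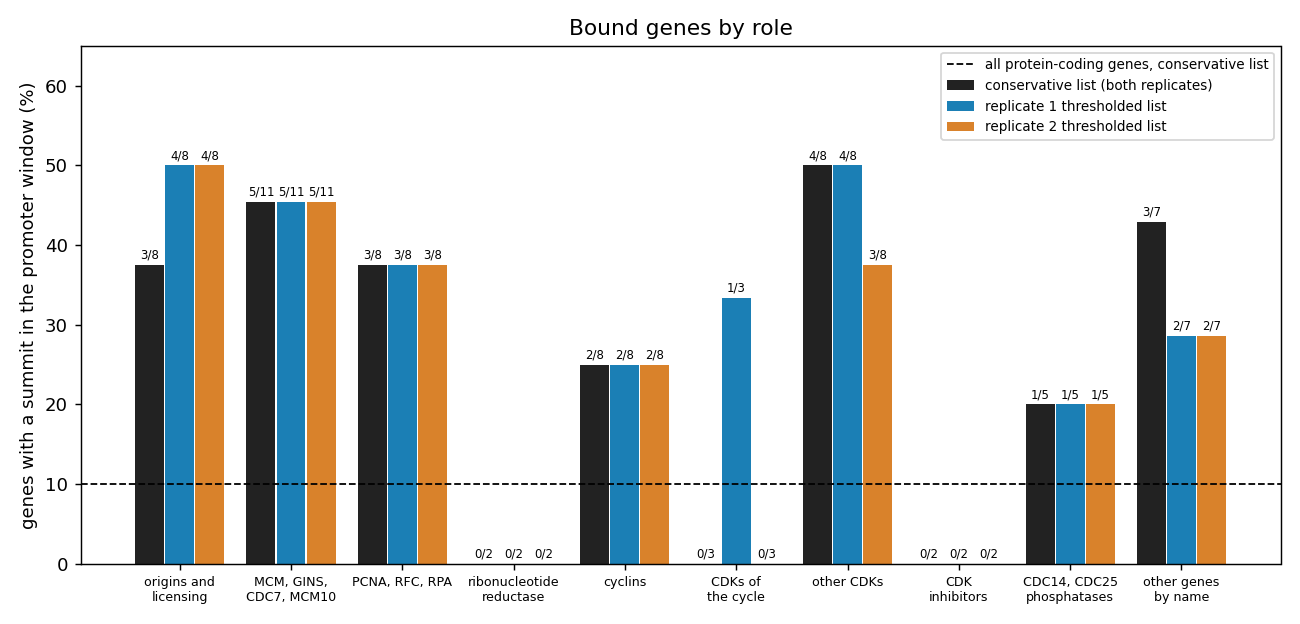
Share of genes with an ISW-1 summit in the promoter window (vertical axis, percent) for 10 role groups, in the conservative list and each replicate's thresholded list, with the number bound over the number of genes above each bar. The dashed line is the 10% of all protein-coding genes bound in the conservative list; 7 of the 10 groups stand above it there, and ribonucleotide reductase, the CDKs of the cycle and the CDK inhibitors have no bound gene.

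Sequences at the summits are shown for 5 bound promoters and 2 unbound ones, to show promoters with and without the letters of an E2F-like site. They come from the RefSeq genome sequence of WBcel235, the assembly named ce11 in the deposited lists, and read 5′ to 3′ on the strand of the named gene. Capitals mark GCGCGAAA on either strand and TTCGAA, and the first 5 windows are 201 bp centred on the summit. The pcn-1 window (chrIV:4049618-4049818, minus strand) and the mcm-7 window (chrV:4346894-4347094, plus strand) hold both sets of letters close together, and the orc-1 window (chrIII:10642878-10643078, plus strand) holds them further apart. The rfc-4 window (chrIII:6972000-6972200, plus strand), around the highest summit of the set, and the window shared by orc-5 and cyb-1 (chrIV:10734611-10734811, minus strand) hold neither. The last 2 are 81 bp around the E2F-like letters upstream of mcm-3 (chrV:15059699-15059779, minus strand) and mcm-6 (chrIII:9794083-9794163, plus strand), helicase genes with no conservative summit.
pcn-1: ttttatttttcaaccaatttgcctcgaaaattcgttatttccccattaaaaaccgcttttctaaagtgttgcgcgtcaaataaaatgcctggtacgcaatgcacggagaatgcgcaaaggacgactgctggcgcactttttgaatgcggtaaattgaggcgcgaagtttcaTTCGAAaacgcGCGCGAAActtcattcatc
mcm-7: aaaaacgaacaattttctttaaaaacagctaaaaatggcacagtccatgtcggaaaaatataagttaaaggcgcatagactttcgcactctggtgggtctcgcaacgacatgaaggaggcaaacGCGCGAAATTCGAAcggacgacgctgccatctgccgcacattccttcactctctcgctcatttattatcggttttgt
orc-1: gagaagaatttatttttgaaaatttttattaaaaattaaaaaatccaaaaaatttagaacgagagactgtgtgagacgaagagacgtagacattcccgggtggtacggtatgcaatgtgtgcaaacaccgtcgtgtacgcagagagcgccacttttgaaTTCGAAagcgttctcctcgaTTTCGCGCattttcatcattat
rfc-4: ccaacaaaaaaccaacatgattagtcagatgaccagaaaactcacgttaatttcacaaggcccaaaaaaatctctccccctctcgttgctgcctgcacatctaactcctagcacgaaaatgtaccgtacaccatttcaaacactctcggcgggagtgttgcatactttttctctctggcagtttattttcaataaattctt
orc-5: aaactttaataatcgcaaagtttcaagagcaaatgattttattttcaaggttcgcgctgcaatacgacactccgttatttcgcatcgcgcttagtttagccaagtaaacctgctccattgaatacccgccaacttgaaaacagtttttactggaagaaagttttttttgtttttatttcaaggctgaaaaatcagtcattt
mcm-3: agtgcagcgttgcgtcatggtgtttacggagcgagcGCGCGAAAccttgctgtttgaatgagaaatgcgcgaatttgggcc
mcm-6: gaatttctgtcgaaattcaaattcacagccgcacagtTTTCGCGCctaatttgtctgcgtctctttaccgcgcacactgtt

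Within 100 bp of a summit, GCGCGAAA was present at 5 of the 20 distinct summits of these genes (25%), against 3.55% of all 2143 conservative summits. The 20 lie in promoter windows by the way they were chosen. The 2143 need not, here and for the other letters and the GC content below. The 5 summits belong to pcn-1, mcm-4, mcm-7, orc-1 and cye-1, and the letters lay 86, 29, 27, 82 and 48 bp from them. TTCGAA was present at 8 of the 20 (40%) against 13.95%, and TTTGAA at 11 (55%) against 33.6%. Counted over the 300 bp upstream of starts in place of the summit windows, TTTGAA was at 66.7% of the bound genes, 78% of the unbound genes and 64.5% of all genes, so there it was no more frequent at the bound genes. TTCGAA was at 38.1%, 19.5% and 18%. Of the 1997 bound genes of the genome, 60.8% had TTTGAA there and 25.6% TTCGAA. GCGCGAAA was there at 23.8% of the bound genes of this set and 3.76% of those 1997. Of the 5 summits with GCGCGAAA, 4 also held TTCGAA, as did 20 of the 76 such summits in the whole list (26.3%). The 2 sets of letters lay at most 6 bases apart at pcn-1 and mcm-7, which are 2 of only 5 such summits in the list. At mcm-7 they sit side by side.

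Other letters were not more frequent here than at all summits. TGCGTCTC was at 3 of 20 (15%) against 16.4%, GAGAGAGA at 1 (5%) against 12.6%, and GGGCGG at 2 (10%) against 10.4%. CACGTG was at none of the 20, against 5.18% of all summits, and so were the E2F-like letters GCGCCAAA (1.45%) and GGCGGGAA (1.63%). The median GC content of the windows was 42%, against 43.8% over all summits.

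Looked at by promoter in place of summit, the E2F-like letters lay upstream of bound and unbound genes at nearly equal shares. GCGCGAAA, GCGCCAAA or GGCGGGAA lay within 300 bp upstream of the start at 15 of the 62 genes (24.2%), against 3.33% of all genes. Of the 21 bound genes 5 carried one (23.8%), and of the 41 unbound genes 10 did (24.4%). GCGCGAAA lay upstream of 7 genes. Of these, mcm-4, mcm-7, orc-1, pcn-1 and rpa-2 were bound and mcm-3 and mcm-6 were not. So 71.4% were bound, against 29.1% of the 258 genes of the genome with these letters there. Among the 55 genes of this set without these letters there, 16 were bound (29.1%). Over the whole promoter window, a stretch chosen after seeing the data, 12 genes held them and 6 were bound (50%), against 18.6% of the 934 such genes of the genome. The unbound ones were then mcm-3, mcm-6, orc-2, psf-3, rnr-1 and rnr-2, and rnr-1 and rnr-2 held the letters at 2 places each. GCGCCAAA lay upstream of 6 genes, cdc-25.1, cdc-25.2, cdc-7, mcm-5, rfc-2 and rpa-1, and none of them was bound in the conservative list. Of all genes with these letters there 14.5% were bound, a share that gives less than 1 gene among 6. Of the 56 genes of this set without GCGCCAAA there, however, 21 were bound (37.5%), and the difference was not tested. GGCGGGAA lay upstream of psf-3 and rnr-2, also unbound, and 11.5% of all genes with it were bound. Of the 60 genes of this set without it 21 were bound (35%). At rpa-2 the letters were 438 bp from the summit.

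Among the fork genes, 3 of 8 were bound, and they held the highest signals of the whole set. rfc-4, which encodes a clamp loader subunit, had a signal of 1157 in the conservative list (chrIII:6971948-6972248), 727 in replicate 1 and 439.9 in replicate 2, with the summit 153, 151 and 153 bp upstream of its start. Signals are the enrichment values that the authors' caller gave to each peak, and levels are not comparable between lists. The summit also counts for eef-1A.1, a divergent neighbour that encodes a translation elongation factor, whose start is 388 bp away, and the data cannot assign it to 1 of them. rpa-2, the gene of the middle RPA subunit, had 1002 (chrI:4769484-4769786), with 630.2 in replicate 1 and 375 in replicate 2, at 666, 661 and 654 bp upstream. pcn-1, the PCNA gene, had 984 (chrIV:4049571-4049913), with 626 and 355 in the replicates, 270, 269 and 271 bp upstream.

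Neither rpa-2 nor pcn-1 shares its summit with another protein-coding start, and the 3 fork genes ranked 33, 51 and 54 among the 2143 peaks. The other 5 fork genes, rfc-1, rfc-2, rfc-3, rpa-1 and rpa-4, had no thresholded summit in any list. rfc-1 came closest, with a ranked-list peak of 72.2 at 169 bp upstream and an IDR of 0.0178, and rfc-2 had an IDR of 0.0605. The clamp loader subunits thus ranged from the highest signal of the set to no conservative summit.

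Of the genes that mark and license origins, 3 of 8 were bound. cdc-6, the loader ATPase gene, had 464 in the conservative list (chrI:4270458-4270672), 279 in replicate 1 and 174 in replicate 2, about 280 bp upstream. Its summit is nearer to the start of the divergent gene acin-1, at 98 bp. orc-5 and cyb-1, the latter a mitotic cyclin B gene, face each other across 627 bp and share 1 summit (chrIV:10734613-10734807), with 324, 182 and 129 in the 3 lists. That summit lies 123 bp upstream of orc-5 and 505 bp upstream of cyb-1. orc-1 had 146 (chrIII:10642790-10643165), with 95.7 and 56.3 in the replicates, 151 bp upstream, and shares the summit with dhs-11 at 113 bp.

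The remaining licensing genes were orc-2, orc-3, orc-4, cdt-1 and cdt-2. cdt-1, whose product brings the helicase to origins, had a summit 27 bp inside the gene in replicate 2's own list, with a signal of 69.9, and in the other thresholded list. In replicate 1 the same window held only a ranked peak of 45.8, so its call rests on replicate 2. cdt-2 encodes the receptor of the ubiquitin ligase that targets CDT-1, and had a thresholded summit in replicate 1 alone (67.6, 49 bp inside the gene). orc-2 and orc-4 are each the second gene of a closely spaced run, and the first genes of those runs, copz-1 and orc-1, were bound.

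Of the helicase group 5 of 11 were bound in the conservative list and the same 5 in replicate 2's list. Replicate 1's list also gave 5, with psf-2 in place of mcm-7. mcm-10, which encodes an initiation factor, led with 379 (chrIII:11317180-11317409), 253 in replicate 1 and 117 in replicate 2, 261 bp upstream and inside the overlapping gene teg-1. psf-1, a GINS subunit gene, had 222 with 158 and 57.6 in the replicates, 144 bp upstream, and shares the summit with R53.4.

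The ring subunit genes had lower values. mcm-4 had 198 in the conservative list, 117 in replicate 1 and 73.7 in replicate 2, at 156 bp upstream. For mcm-2 the values were 152, 102 and 59.2, at 266 bp upstream. mcm-7 had 141 in the conservative list and 70.9 in replicate 2, 172 bp upstream in both. In replicate 1 mcm-7 had only a ranked peak of 73.6 that did not pass that list's threshold, and it was absent from the other thresholded list. Its summit also counts for hpo-18 and figl-1.

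The other ring genes, mcm-3, mcm-5 and mcm-6, were not bound in any thresholded list. mcm-5 stood just outside the threshold, with a ranked peak of 80.9 at 184 bp upstream and an IDR of 0.0114. mcm-6 had a ranked peak of 45.1 with an IDR of 0.787, and mcm-3 had a peak in replicate 1's ranked list alone (25.7). The 6 ring subunits thus ran from a called summit to a trace in 1 replicate. psf-2 was bound in replicate 1 (117, 280 bp upstream) and the other thresholded list, while replicate 2's ranked list gave 16.3. psf-3 had a ranked peak in the window with an IDR of 0.0615. Its nearest conservative summit, with a signal of 912, lay 1005 bp downstream of its start. That is beyond the window and past the end of the gene, which is 890 bp long. cdc-7, a kinase gene of helicase activation, had a ranked peak of 76.3 at 124 bp upstream with an IDR of 0.155. Its nearest conservative summit lay 1414 bp upstream, beyond the window.

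**Figure D2:**
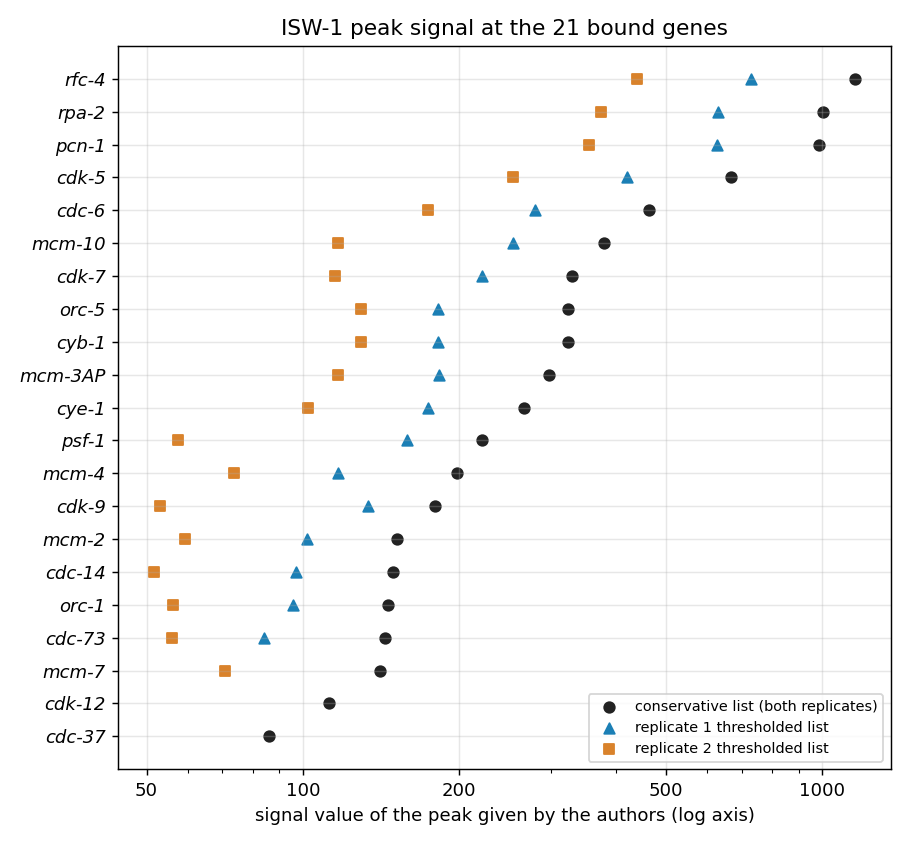
Authors' signal value (horizontal log axis) of the highest peak in the promoter window of each of the 21 bound genes, ordered from rfc-4 (1157) down to cdc-37 (85.9), in the conservative list and each replicate's thresholded list. Replicate 1 lies above replicate 2 wherever both have a value; mcm-7 lacks a replicate 1 point, and cdk-12 and cdc-37 lack both.

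Of the 8 cyclin genes, cyb-1 (above) and cye-1 were bound. cye-1, the gene of the G1/S cyclin E, had 267 (chrI:6780154-6780331), with 174 in replicate 1 and 102 in replicate 2, 555 bp upstream. The summit is nearer to pqn-21, at 93 bp, and a further conservative summit lay inside cye-1 beyond the window. Both cyclin calls therefore rest on a summit that lies closer to the start of a divergent neighbour. cya-1, cya-2, cyb-2.1, cyb-2.2, cyb-3 and cyd-1 had no thresholded summit. Of these, cya-2, cyb-2.1, cyb-2.2 and cyd-1 had no peak in any ranked list used either.

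None of the 3 cycle kinases, cdk-1, cdk-2 and cdk-4, was bound in the conservative list. cdk-4, the partner of cyclin D, was in replicate 1's list (60.3, 465 bp upstream) and the other thresholded list, and its IDR in the ranked list was 0.0227. cdk-1, the mitotic kinase gene, had a ranked peak of 72.8 at 137 bp upstream with an IDR of 0.0242. cdk-2 had no peak in any list used. Neither inhibitor gene, cki-1 nor cki-2, was bound, and cki-1 had no peak in any list used. Both ribonucleotide reductase genes were unbound, with rnr-1 at an IDR of 0.0175 for a peak 432 bp inside the gene.

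Among the phosphatases only cdc-14 was bound, with 149 in the conservative list, 96.9 in replicate 1 and 51.6 in replicate 2, 300 bp upstream. The CDC25-type genes cdc-25.1, cdc-25.2, cdc-25.3 and cdc-25.4, whose products activate the cycle kinases, had no thresholded summit. For cdc-25.3 there was no peak in any list used.

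Of the other kinases, cdk-5 had the highest signal, 667 (chrIII:13466303-13466548), with 420.3 in replicate 1 and 253 in replicate 2, 77 bp upstream of its start and inside the overlapping gene kel-3. cdk-7 had 329, 221 and 115, with the summit 10, 25 and 3 bp upstream, the closest to a start in the set. cdk-9 had 179, 134 and 53.1 and shares its summit with hxk-2. cdk-12 had 112 in the conservative list and was in neither replicate's own list. cdk-11.2 was bound in replicate 1 (105) and in the other thresholded list, but had only a ranked peak of 12.6 in replicate 2. cdk-8, cdk-11.1 and cdk-14 had no thresholded summit.

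Among the other genes by name, mcm-3AP had 298, 183 and 117 in the 3 lists and cdc-73 had 144, 84.3 and 56.1. cdc-37 had 85.9, the lowest value of the 21, in the conservative list alone, and its summit was the only one downstream of the start, 240 bp inside the gene. cdc-26, cdc-42, cdc-50.B and cdc-5L were unbound. The 2 weakest calls by signal, cdc-37 and cdk-12, had an IDR of 0.00461 and 0.000969, so they passed the 0.01 threshold in the joint list while neither replicate's own list held them.

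**Figure D3:**
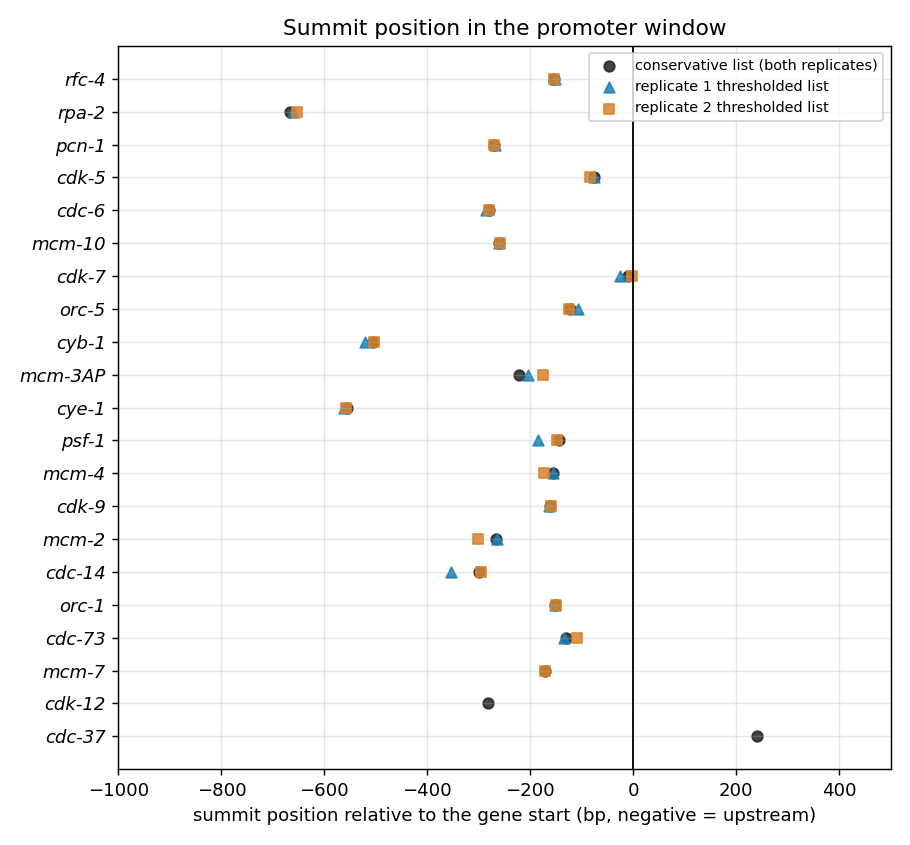
Position of each summit relative to the gene start (horizontal axis, bp, negative is upstream) for the 21 bound genes in the conservative list and each replicate's thresholded list. All but cdc-37 lie upstream in the conservative list, with a median of 172 bp, and rpa-2, cye-1 and cyb-1 lie more than 500 bp away.

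The replicates placed the summits at close positions. For the 18 genes bound in both replicates' own lists, 85.7% of the 21 against 77.8% of the 1997 bound genes, the largest shift from the conservative summit was at cdc-14, where replicate 1's summit lay 353 bp upstream and the conservative one 300 bp. Of the 20 peaks, 8 (40%) were exactly 376 bp wide, as were 55.2% of all conservative peaks. The median signal at the bound genes was 267, against 232 at all bound genes, and the median percentile within the list was 67.3 against 59.6. A summit of their own, counting for no other protein-coding gene, was found at 10 of the 21 (47.6%), against 41.1% of all bound genes.

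Many of the unbound genes had a peak that did not reach the conservative list. Of the 41, 18 (43.9%) had a peak in the window in the series' ranked list, which holds 11648 peaks without a threshold, against 16.1% of the 17976 unbound genes of the genome. With bound genes included, 39 of the 62 (62.9%) had a ranked peak, against 24.5% of all genes. Ranked peaks of both replicates lay in the window of 18 of the 41, against 13.9% of all unbound genes. None of the 7 lists used held a peak for 10 genes (24.4%), against 49.4%. They were cdc-25.3, cdc-50.B, cdc-5L, cdk-14, cdk-2, cki-1, cya-2, cyb-2.1, cyb-2.2 and cyd-1. Of the 41, 5 (12.2%, against 1.47% of all unbound genes) had a summit in another thresholded list: cdk-4, cdk-11.2, cdt-1, cdt-2 and psf-2. Any other peak below the threshold is a value at the limit of these lists and not a call.

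**Figure D4:**
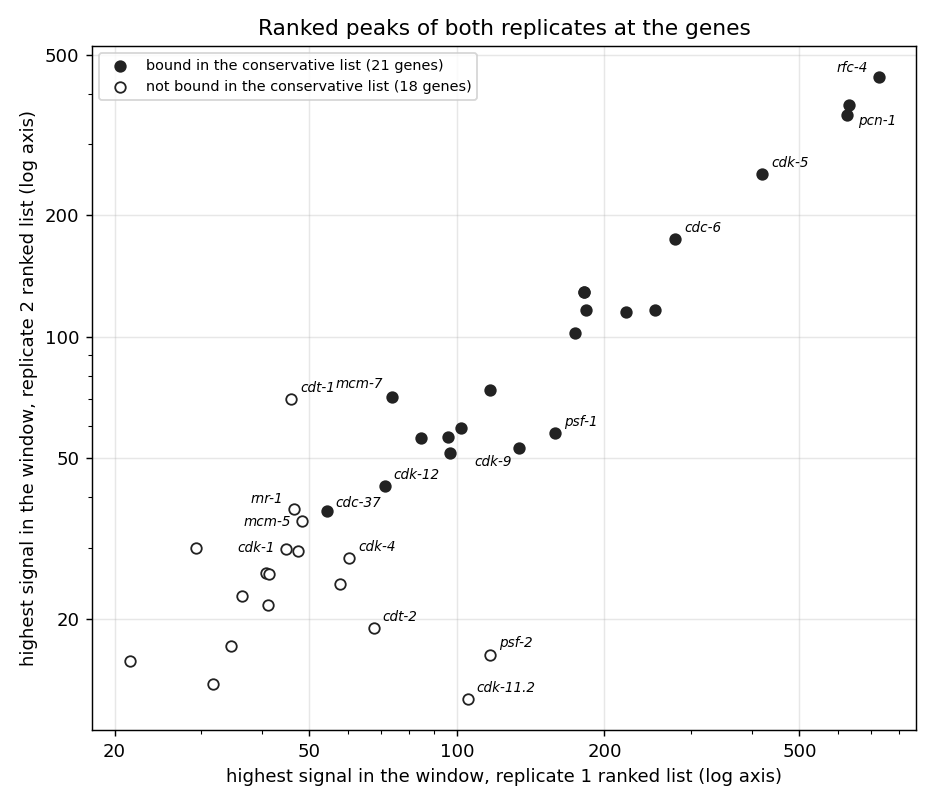
Highest signal in the promoter window in the ranked list of replicate 1 (horizontal log axis) and replicate 2 (vertical log axis) for the 39 genes with a ranked peak in both, filled where bound in the conservative list (21) and open where not (18). psf-2 and cdk-11.2 stand apart, high in replicate 1 and low in replicate 2 (117 and 16.3, 105 and 12.6), and cdt-1 has the highest replicate 2 value of the open points (69.9, against 45.8 in replicate 1). The 2 values of a gene can come from peaks at different places in the window, as at cdk-11.2.

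The share of bound genes differed with gene arrangement. A divergent neighbour whose interval ends within 1000 bp lay upstream of 22 of the 62 genes (35.5%), against 17% of all genes. Of those 22, 10 were bound (45.5%, against 28% of all such genes), and of the other 40, 11 were bound (27.5%, against 6.32%). In both groups the share was above that of all genes of the same arrangement, and whether arrangement plays a part was not tested. The other 40 are not free of divergent neighbours, since overlapping or more distant ones fall among them. Examples are the bound genes cdk-5, mcm-10 and cdc-14. By chromosome, 6 of 18 genes were bound on I, 4 of 13 on II, 5 of 14 on III, 5 of 9 on IV, 1 of 6 on V and 0 of 2 on X. In the same order, 14.9, 9.94, 16.4, 9.78, 6.21 and 5.82% of all genes on these chromosomes were bound. Applying each chromosome's own share to its number of genes of this set gives 7.65 genes. The share of the whole genome gives 6.2, and 21 were observed.

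Runs of genes on 1 strand, at most 500 bp apart, can be transcribed together in the worm as operons. Only 8 of the 62 genes (12.9%) were further down such a run, against 20.2% of all genes, and mcm-4 was the 1 bound among them (12.5%, against 6.13% of all such genes). Of the 7 unbound ones, 4 (57.1%) followed a bound first gene, against 21.3% of all such genes. They were cdc-26 after eif-3.E, orc-2 after copz-1, orc-4 after orc-1 and rfc-3 after C39E9.12. Genes that were first in a run were bound at 7 of 17 (41.2%, against 20.5%), and genes that stood alone at 13 of 37 (35.1%, against 8.88%). Whether any run is an operon was not tested.

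Genes of replication and the cell cycle outside the name rule were bound at 36 of the 84 matched by name (42.9%, against 10% of all genes), with 36 in replicate 1's list and 31 in replicate 2's. The summit also counted for another gene at 29 of the 36 (80.6%), against 58.9% of all bound genes. Counting only the gene with the nearest start gave 22 of the 84, beside 6.98% of all genes. Replication proteins had 10 of 20, led by top-2 (871), a topoisomerase gene, and ctf-4 (668), which encodes a fork scaffold protein. Cohesin and condensin had 6 of 12, led by the condensin genes hcp-6 (463) and kle-2 (401). Centrosome and spindle genes had 8 of 14, led by spd-5 (641), a centrosome scaffold gene, and sas-4 (328), a centriole gene. Checkpoint genes and kinases had 5 of 14, with mdf-2 (388) of the spindle checkpoint and wee-1.3 (368), a kinase that restrains CDK-1. The kinetochore had 4 of 11, with knl-3 (448) and bir-1 (224). The anaphase-promoting complex and linked genes had 3 of 13. Highest were ify-1 (650), the securin gene, and sep-1 (183), the separase gene, which are not subunits of the complex. The third was the subunit gene mat-1 (118), bound in replicate 1's list but not in replicate 2's.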

How the data were processed

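ISW-1::EGFP ChIP-seq peaks of 2 biological replicates were analysed. The members and lists were chosen with earlier results of these data known. The authors deposited 8 peak lists on ce11, per the labels and file names, and 7 were used. Each holds a signal value per peak from the authors' peak caller, a summit offset (a position, not a score), and in ranked lists the deposited −log10 of the global IDR. All 2143 conservative peaks were found in a ranked list, with an IDR of at most 0.00997. The sources used here do not give the aligner, caller or control. Another 16 per-sample columns, which name no replicate, were left out. The lists carry no read counts, so depth is unknown and no counting interval was given.

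Summits were assigned to Ensembl release 115 starts (WBcel235, in which all peaks lie within the chromosomes) with Python 3.11.15, pandas 2.3.3 and numpy 2.4.6, and assignment was checked on simulated summits. Wilson intervals (scipy 1.17.1) cover the number of genes only. Letters were searched on both strands, overlaps allowed. Every gene of the set with a conservative summit was named with its values. Of each list outside the name rule the 2 bound genes of highest signal were named, with mat-1 added. Of 89 symbols on that list, 5 matched no gene. Alternatives were other lists, thresholds, windows, starts and assignments. Sequence was read from RefSeq's genome of the same assembly.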

Additional observations from a re-analysis of the deposited data

How the results depend on the processing

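The count of bound genes stayed between 17 and 24 in place of 21 under 9 of 10 alternatives. The share of all genes moved with the setting. It was 6.98% with the nearest start, 8.06% from 500 bp upstream to 200 bp downstream and 12.6% in the window from 2000 bp upstream. With the peaks of higher signal alone the count was 13, beside 6.02% of all genes. Windows from 500 bp upstream to 200 bp downstream lost cdc-37, cyb-1, cye-1 and rpa-2. Assigning each summit to the nearest start lost cdc-6, cyb-1, cye-1 and orc-1. Cyclins then had 0 bound genes under either choice and licensing genes 1 with the nearest start. In the other thresholded list cdc-37, cdk-12 and mcm-7 were lost and cdk-11.2, cdk-4, cdt-1 and psf-2 gained, so that cycle kinases had 1, and leaving out each replicate gave 0 to 1. Peaks of higher signal left 3 helicase genes, 2 of the other kinases, 1 of the other genes by name and 0 phosphatases. The list outside the name rule had 22 bound genes with those peaks and also 22 with the nearest start, in place of 36. Beside them stood 6.02% and 6.98% of all genes.

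The median percentile, ranked anew within the list of each setting, was 67.3 in the conservative list and 63.7 in the other list. With peaks of higher signal it was 51.1, a place among those 1072 peaks alone and for the 13 genes left. That value does not mean a lower signal. It was 62.9 with peaks found in both replicates, 57.9 in the narrow window and 62.6 in the window from 2000 bp upstream. Without each replicate it was 64.6 to 65.7. Genes that share a summit numbered 11, and 6 with peaks of higher signal, 5 in the narrow window and 17 in the wide one. Genes further down a run numbered 2 with gaps of at most 200 bp and 13 with 1000 bp. Within 50 bp of summits, GCGCGAAA fell from 5 to 2 (10%, against 2.19% of all summits) and TTCGAA from 8 to 3 (15%, against 4.76%). TTTGAA fell from 11 to 7 (35%, against 17.5%) and TGCGTCTC from 3 to 0 (against 11.9%). CACGTG was at 1 summit within 150 bp and 1 in the other list, and 1 to 2 without each replicate. Of all summits 5.43 to 7.28% held it in these settings. GAGAGAGA was at 0 in the other list and 0 without each replicate, against 11.8 to 12.3% of all summits. The cause of these shifts was not tested beyond the smaller windows and lists themselves. No paired analysis was possible because there is only 1 group. The following settings were chosen after seeing the data. Leaving out all 15 other kinases and other genes by name gave 14 of 47 genes (29.8%, beside 10% of all genes). Counting each summit once gave 20 summits. Peak lists give no depth, whole animals mix tissues, non-coding starts were not considered, and a shared summit cannot be assigned to 1 gene.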
